A study of Mus musculus with 8 samples.

Results

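Of the 30 genes of motile cilia and sperm followed here, 3 were upregulated in the lumbar dorsal root ganglia (DRGs) of FD mice. None of the 19 that could be tested was downregulated. Over all tested genes on the array 2.02% were higher and 1.10% were lower. The genes were chosen by name, as axonemal dynein chains and other genes of motile cilia or sperm formation. Earlier results of these data were known, so that the share of these genes that was called is a description only. All 30 were on the array, out of 34762 gene names, with 56 of its 55681 probes on 15 chromosomes. The tested 19, with 24 probes, were those well above background in every sample.

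Motile cilia and sperm flagella share a core of doublet microtubules, the axoneme, on which axonemal dyneins act as motors. Outer and inner dynein arms bend the axoneme, while radial spokes, the central pair and nexin links regulate the beat, and the transcription factors Foxj1 and the RFX family switch on many of these genes. Neurons and glia of the DRG carry a nonmotile primary cilium, which is built by intraflagellar transport and lacks dynein arms.

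The FD mice were male α-Gal A(-/0) animals, a model of Fabry disease that lacks the lysosomal enzyme α-galactosidase A, and the wildtype mice were male C57BL/6J animals. Both groups were 20 to 24 weeks old, and DRGs L3 to L5 were taken. There were 4 samples per group, each a pool from 2 mice, on the 8 arrays of 1 Agilent slide read in 1 scan. The methods state a C57BL/6 background for the FD mice and that the arrays compared separate inbred colonies. On the arrays alone, genotype and colony therefore cannot be told apart. For RT-qPCR the paper used a separate set of samples from backcrossed FD mice, to control for the colony. It reports Dnah8 and Meig1 as significantly upregulated there, and Wdr65 was not among the genes assayed. From these same arrays the paper already lists Dnah8, Meig1 and Wdr65 among its upregulated genes. Their calls below therefore repeat published ones and are not independent of them. The p-values below measure the spread between the pools on the arrays only.

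Gla, the disrupted gene, was read at 16.59 ± 0.096 log2 units in FD DRGs (mean ± SD, n = 4) and at 16.62 ± 0.11 in wildtype DRGs (n = 4) (adjusted p = 0.879 in limma). This probe therefore did not separate the groups, and whether it lies outside the disrupted part of the gene is not given in the sources used here. All 12 sensory neuron markers were above background on all 8 arrays, among them Prph, Scn10a and Calca. On each array between 56.5% and 60.8% of the probes were well above background, with 58.1% to 60.8% on the FD arrays and 56.5% to 60.5% on the wildtype arrays. Values below are log2 signals after quantile normalization, differences are FD minus wildtype, and a gene with several tested probes is counted by its brightest one.

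Whether a probe lies in a coding exon or elsewhere in its transcript was not read here, since no annotation of the build was used. Each probe is 60 bases long, and a stretch of 30 bases is shown for the 4 probes that passed the test and for a second Dnah8 probe, with capitals marking the letters of a poly(A) signal, AATAAA or ATTAAA, on the probe strand.
Dnah8, chr17:31012150-31012209 (mm9, + strand): taccctccctcaATTAAAcagttgacactt
Wdr65, chr4:118227156-118227215 (mm9, - strand): gagtagggtcagAATAAAggtgtttgctca
Meig1 probe 1, chr2:3326387-3326446 (mm9, - strand): agaattggttgtttacattcttccatcgtg
Meig1 probe 2, chr2:3326319-3326378 (mm9, - strand): taattcatggtgtcttacacaacataaaca
Dnah8 second probe, chr17:30956113-30956172 (mm9, + strand): ctgggatcaaccaagaccttctggacatca
These letters stood in 12 of the 56 member probes and in 13.7% of all probes on the array. Among the member probes they stood in 8 of the 24 that were above background on all 8 arrays, in 3 of the 12 above background on some arrays, and in 1 of the 20 above background on none. Over all tested probes the share was 16.8%.

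Dnah8 encodes an axonemal dynein heavy chain, of a kind that forms the outer arm, and is best known from testis and sperm. Its tested probe read 8.92, 9.10, 9.11 and 9.13 in FD samples 1 to 4, and 7.52, 7.24, 7.43 and 7.28 in wildtype samples 1 to 4. The lowest FD value was well above the highest wildtype value. The upregulation was 3.25-fold, with a log2 difference of 1.70 (SE 0.083, adjusted p = 1.61e-05 in limma). Another Dnah8 probe, 56.0 kb away, read 4.48, 4.56, 4.70 and 3.89 in FD DRGs and 3.32, 2.37, 2.38 and 3.27 in wildtype DRGs. It was above background in FD samples 1 and 2 only, so no fold change or order of the groups is given for it. The last Dnah8 probe was above background on no array.

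Meig1, a small protein that is required for sperm formation, was upregulated by both of its probes. Probe 1 read 9.28, 9.43, 9.61 and 9.40 in FD and 8.07, 8.38, 8.08 and 7.99 in wildtype DRGs. Probe 2, which lies 8 bases from it, read 8.07, 8.22, 8.00 and 8.22 in FD and 6.80, 6.98, 6.77 and 6.89 in wildtype DRGs. The groups were separate in each probe, with all FD values higher. The fold changes were 2.47 for probe 1 (log2 difference 1.30, SE 0.10, adjusted p = 0.000344) and 2.41 for probe 2 (log2 difference 1.27, SE 0.077, adjusted p = 6.10e-05), both in limma. As neighbours on the same transcript the probes are not independent measurements.

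Wdr65, the third upregulated member, is named Cfap57 in RefSeq and encodes a WD repeat protein of cilia and flagella. Its only probe read 10.61, 10.64, 10.73 and 10.61 in FD and 9.51, 9.59, 9.71 and 9.40 in wildtype DRGs. The FD samples were again all higher and lay within a narrow range. The fold change was 2.14 (log2 difference 1.10, SE 0.074, adjusted p = 0.000114 in limma).

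**Figure D1:**
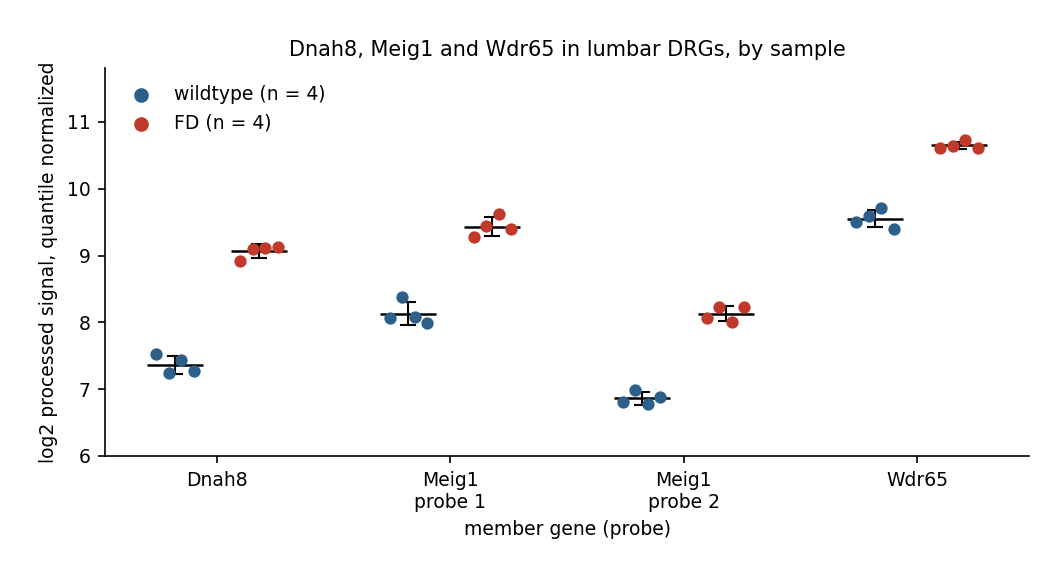
Log2 processed signal of the 4 called probes, after quantile normalization, in each of the 4 wildtype (blue) and 4 FD (red) samples, with lines at the group mean and error bars of 1 SD. No FD value falls within the wildtype range for Dnah8, for either Meig1 probe or for Wdr65.

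The differences of the 3 upregulated members were also present within each row of the slide. Row 1 held FD samples 1 to 3 and wildtype sample 1, and row 2 held FD sample 4 and wildtype samples 2 to 4. The log2 difference was 1.52 within row 1 and 1.82 within row 2 for Dnah8, 1.37 and 1.25 for Meig1, and 1.15 and 1.05 for Wdr65. With the row as a block it was 1.67 for Dnah8, 1.31 for Meig1 and 1.10 for Wdr65, and all 3 stayed called (highest adjusted p = 0.00293 in limma).

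Against the array as a whole, 3 of 19 tested members (15.8%) were called higher, where 2.02% of the 21063 tested genes were. None of the 19 was called lower, where 1.10% of all tested genes were, and at an unadjusted p under 0.05 in limma 7 members were higher and 1 was lower, where 10.6% and 7.11% of all tested genes were. The FD samples were all higher than the wildtype samples in 6 of the 19 members, which were Dnah8, Meig1, Wdr65, Dnah7b, Rsph1 and Dnaic1, compared with 8.62% of all tested genes. The reverse pattern was seen in 0 members and in 5.12% of all tested genes.

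The 19 members did not move as a block. Their median log2 difference was 0.11, with 13 above zero and 6 below, while over all tested genes it was 0.02, with 55.7% above zero. Without the 3 called genes the median of the other 16 was 0.07, with 10 above zero. The mean log2 signal of these 16 genes ranged from 8.23 to 8.32 in FD samples and from 8.18 to 8.30 in wildtype samples, so that the groups overlapped. In whole ganglia, a change in the number of cells of a type and a change in RNA per cell cannot be told apart.

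**Figure D2:**
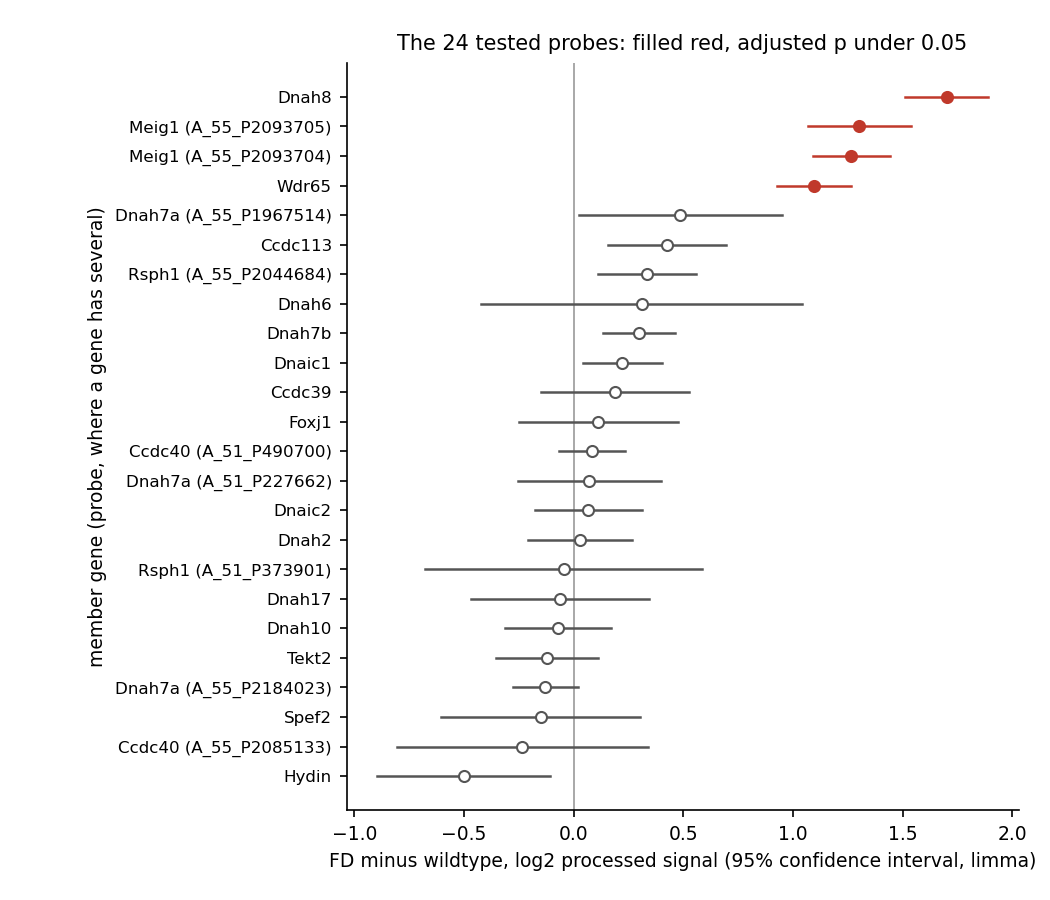
FD minus wildtype log2 signal of the 24 tested member probes, sorted by size, with the 95% confidence interval from limma; filled red points have an adjusted p under 0.05. The 4 probes of Dnah8, Meig1 and Wdr65 stand at 1.10 to 1.70, and the other 20 lie between -0.50 and 0.49.

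Among the tested probes of the other dynein heavy chains, only 1 had non-overlapping groups. Dnah7b, an inner arm heavy chain, read 9.76, 9.66, 9.85 and 9.81 in FD and 9.32, 9.57, 9.46 and 9.53 in wildtype DRGs. Its log2 difference of 0.30 (95% confidence interval 0.13 to 0.46) did not pass the test (adjusted p = 0.0665 in limma). It passed with the slide row as a block (adjusted p = 0.0478) and with array weights (adjusted p = 0.0308), both in limma.

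Dnah7a, the close relative of Dnah7b, was read by 3 tested probes that did not point the same way. The brightest, A_55_P2184023, ranged from 10.31 to 10.36 in FD and from 10.33 to 10.58 in wildtype DRGs, with a log2 difference of -0.13 (adjusted p = 0.342). A_55_P1967514 averaged 6.50 in FD and 6.01 in wildtype DRGs, a log2 difference of 0.49 (adjusted p = 0.260). A_51_P227662 averaged 6.02 and 5.95, a difference of 0.07 (adjusted p = 0.828), all in limma. Both are assigned to a RefSeq transcript. The much brighter A_55_P2184023, by which Dnah7a is counted among the members, is not. The 4 Dnah7a probes span 287 kb, and none matched a Dnah7b probe at more than 23 of 58 bases in an ungapped comparison. Probes were compared only with probes, so whether a Dnah7a probe also matches the transcript of its paralog Dnah7b was not tested.

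The remaining inner arm chains that could be tested were Dnah2, Dnah6 and Dnah10. Dnah2 ranged from 7.80 to 8.01 in FD and from 7.60 to 8.09 in wildtype DRGs, a log2 difference of 0.03. Dnah10 differed by -0.07. Dnah6 had the largest SD among FD samples of all tested members, and ranged from 7.65 to 9.17 in FD and from 7.41 to 8.44 in wildtype DRGs, and its log2 difference of 0.31 had a 95% confidence interval of -0.42 to 1.04. Within slide row 1 it was -0.46 and within row 2 it was 1.37, so the direction was not shared. The outer arm chain Dnah17, which is known from sperm, differed by -0.06 through its tested probe.

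Of the smaller dynein chains, Dnaic1, an outer arm intermediate chain, read 7.81, 7.73, 7.64 and 7.96 in FD and 7.59, 7.63, 7.45 and 7.58 in wildtype DRGs. All FD samples were higher by a small margin, and the log2 difference of 0.22 did not pass the test (adjusted p = 0.193 in limma). Its partner Dnaic2 differed by 0.07. Dnali1, an inner arm light intermediate chain, was above background in 2 FD samples and in 0 wildtype samples. It read 5.40, 4.98, 4.96 and 4.52 in FD and 3.84, 5.12, 2.96 and 3.86 in wildtype DRGs, so that the groups overlapped (adjusted p = 0.426 in limma without a background filter), and no fold is given.

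Radial spokes and nexin links gave 2 members with positive differences that missed the threshold. Rsph1, a radial spoke head protein, read 9.32, 9.42, 9.21 and 9.40 in FD and 8.74, 9.15, 9.04 and 9.09 in wildtype DRGs with its brighter probe (log2 difference 0.33, adjusted p = 0.118), while its other probe differed by -0.05 (adjusted p = 0.950). Ccdc113, a protein of motile cilia and their basal region, read 7.30, 7.15, 7.30 and 7.36 in FD and 6.61, 7.16, 6.70 and 6.92 in wildtype DRGs (log2 difference 0.43, adjusted p = 0.101). Wildtype sample 2 alone overlapped the FD range, and without it Ccdc113 passed (adjusted p = 0.0272). Without any other single sample it did not pass (adjusted p = 0.145 to 0.223), all in limma. Rsph4a, a further spoke head protein, was above background on 7 arrays and was not tested.

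Hydin, a central pair protein, had the most negative difference of the tested members. It read 6.15, 5.34, 5.80 and 5.61 in FD and 6.19, 6.53, 6.17 and 6.01 in wildtype DRGs. FD sample 1 overlapped the wildtype range, and the log2 difference of -0.50 did not pass the test (adjusted p = 0.180 in limma). Spef2, a further central pair protein needed for sperm tails, differed by -0.15, with wide ranges of 13.33 to 13.99 in FD and 13.44 to 14.18 in wildtype DRGs. Its other probe averaged 5.17 in FD and 4.52 in wildtype DRGs. That probe was above background on 4 arrays, 3 of them FD, and was not among the tested probes.

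The regulator Foxj1 was well above background on every array, from 9.998 to 10.48 in FD and from 9.72 to 10.45 in wildtype DRGs. The groups overlapped, and its log2 difference was 0.11, with a 95% confidence interval of -0.25 to 0.48 (adjusted p = 0.754 in limma). Ccdc39 and Ccdc40, which together set the axonemal repeat, differed by 0.19 and 0.08, and the dimmer tested Ccdc40 probe by -0.23. Tekt2, a tektin of the doublet microtubules, differed by -0.12.

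The other 11 of the 30 members had no probe above background on all 8 arrays. Dnah1, Dnah3, Dnah5, Dnah9 and Spag6, which is named Spag6l in RefSeq, were above background on no array. Dnah5 and Dnah9 are the outer arm heavy chains of multiciliated airway cells, and Spag6 is a central pair protein. Dnah11 and Dnah12 were above background on 1 array each, Dnali1 and Spag16 on 2 arrays, and Rsph4a and Tekt1 on 7 arrays. For Spag16 both arrays were wildtype, samples 2 and 4, and no fold is given. With all probes tested and no background filter, none of the 11 was called (smallest adjusted p = 0.273 in limma). With probes above background on 4 of 8 arrays, the adjusted p was 0.181 for Rsph4a and 0.151 and 0.177 for the Tekt1 probes, also in limma. A probe not above background gives only an upper limit for the transcript.

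**Figure D3:**
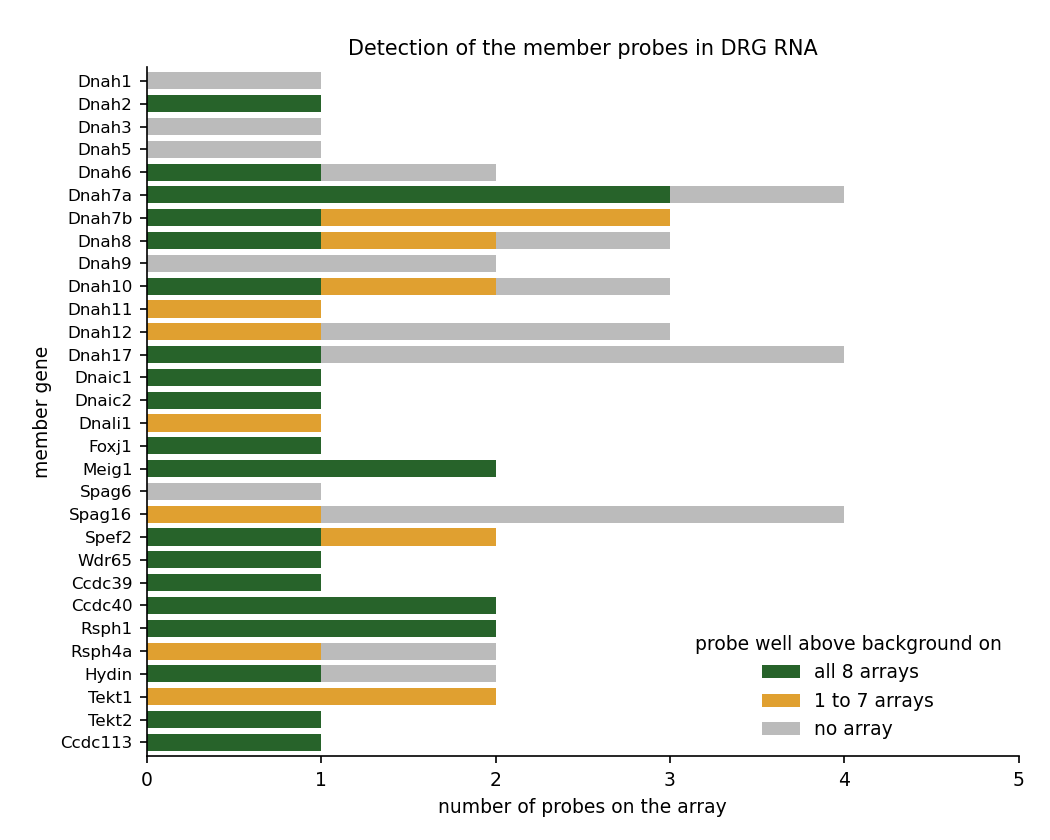
Number of array probes for each of the 30 genes, colored by the number of arrays on which the probe was well above background. For 19 genes at least 1 probe was above background on all 8 arrays, for 6 genes at most on some arrays, and for 5 genes on none.

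Promoters of the members were compared by their letters. RefSeq gave windows from 250 bases before to 50 bases after the start for 26 of the 30 members on GRCm38.p6, with several windows for some genes, and none for Dnah3, Foxj1, Rsph1 or Rsph4a. The letters GTTGCC, or GGCAAC on the other strand, which belong to the RFX motif, stood in 11 of the 26 members (42.3%) and in 14.1% of 27025 genes. After the windows had been read, GTTGCT and AGCAAC were searched too, and stood in 17 of the 26 members (65.4%) and in 16.7% of all genes. Genes with several windows have more chances of a match.

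Longer arrangements of the same letters were rarer over the genome. The X-box, to which RFX factors bind, was searched as GTTNC and GNAAC with 4 bases between them, and stood in 3 of the 26 members (11.5%) and in 1.19% of all genes. An inverted pair of the short forms with 1 base between them stood in 5 members, Dnah6, Dnah7a, Dnah7b, Dnaic2 and Tekt2, and in 0.233% of all genes. Both arrangements overlap the short forms counted above and were set after the windows had been read. A stretch of 30 bases is shown for each X-box and for 3 of the inverted pairs, with the matched letters in capitals.
Wdr65 (Cfap57), chr4:118620767-118620796 (- strand), X-box from 3 bases before the start: gttttctcGTTGCTATAGGAACtgctctag
Hydin, chr8:110266948-110266977 (+ strand), X-box from 21 bases before the start: actctgcgGTTGCTGTGGCAACagatggta
Spag16, chr1:69826859-69826888 (+ strand), X-box from 103 bases before the start: GGCAACgcGTTGCCGTAGTAACtgcggacg
Dnah7a, chr1:53706821-53706850 (- strand), inverted pair: cgccagtttGTTGCTTAGCAACgaatcgac
Dnah7b, chr1:46066820-46066849 (+ strand), inverted pair: cgccagtttGTTGCTTAGCAACgaatcgac
Dnaic2, chr11:114727377-114727406 (+ strand), inverted pair: ccggccaggGTTGCTAGGCAACtggtaaac
The paralogs Dnah7a and Dnah7b had the same 30 letters here. Among the 3 upregulated members, Wdr65 held the X-box, Meig1 held GTTGCT 37 bases after a start, and the Dnah8 window held none of these letters. The forkhead letters TGTTTAC or GTAAACA stood in 1 member, Dnah17, and in 4.05% of all genes. A match is a description of the sequence and not a sign that a factor binds there.

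The genes next to the upregulated members were examined for shared movement. Over all tested genes 2.02% were called higher and 1.10% lower, and 55.7% had positive differences. At an unadjusted p under 0.05 in limma 10.6% of all tested genes were higher and 7.11% were lower. The neighbour counts at that threshold take both directions together. Near each of the 3 members they were a larger share than over all tested genes, and the cause was not tested. Within 1 Mb of the Dnah8 probe there were 20 tested genes, of which 1, Slc37a1, was called, with a log2 difference of 0.29 (adjusted p = 0.0263). At an unadjusted p under 0.05 in limma there were 9 of the 20, and 14 had positive differences. Rsph1 lies among them, 380 kb from Dnah8. Within 1 Mb of Meig1 there were 11 tested genes, of which 0 were called and 3 had an unadjusted p under 0.05 in limma. Near Wdr65 there were 37, 10 with an unadjusted p under 0.05, and 3 of them were called by their brightest probe, with log2 differences of 0.29 for Hyi (adjusted p = 0.0165), -0.34 for Med8 (adjusted p = 0.0157) and 0.33 for the glucose transporter gene Slc2a1 (adjusted p = 0.0412). A dimmer probe of Ermap differed by -0.79 (adjusted p = 0.0155), all in limma. Over the brightest probes of these neighbours, differences ranged from -0.48 to 0.33, below the 1.10 to 1.70 of the 3 members. Among dimmer probes that were not called, Ccdc30, named after its value was seen, reached 0.87 (adjusted p = 0.191 in limma).

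**Figure D4:**
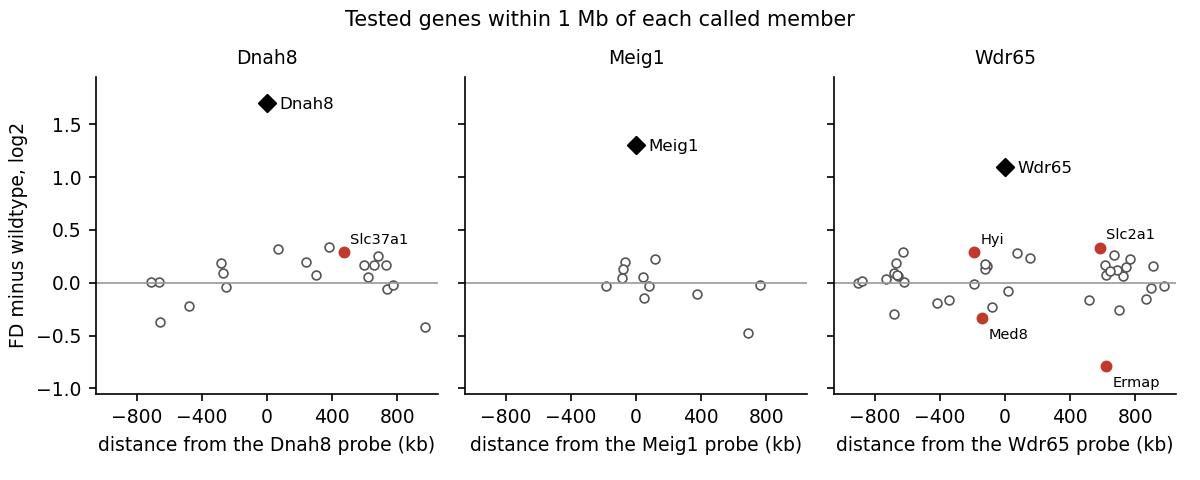
FD minus wildtype log2 signal of tested genes within 1 Mb of the Dnah8, Meig1 and Wdr65 probes, against distance in kb; the black diamond is the member, open points are the brightest probes of genes not called, and red points are called probes. The members stand at 1.70, 1.30 and 1.10, and no plotted neighbour rises above 0.33.

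Other ciliary genes were followed in 5 lists that do not hold the members, with 129 genes, of which 98 were tested. Of these 7 were higher and 1 was lower in FD DRGs, with a median log2 difference of 0.08. Over all tested genes 2.02% were higher and 1.10% were lower, with a median of 0.02. Without FD sample 2, or without wildtype sample 3, 3 of the other ciliary genes were called in all. The list of tektins and other doublet microtubule genes had 4 called higher of 19 tested, with a median of 0.18. They were Odf3b (log2 difference 0.82, adjusted p = 0.00215), Cfap45 (0.69, adjusted p = 0.0224), Ak8, an adenylate kinase (0.31, adjusted p = 0.0297), and Efcab6 (1.02, adjusted p = 0.0350), all in limma. In each of them the groups were separate, with all FD values higher. That pattern was seen in 8 of the 19 tested genes of this list and in 8.62% of all tested genes. None of the 4 passed the test named in the methods, and with the replicate number as a block only Odf3b did (adjusted p = 0.0383 in limma). For Odf3b the FD samples lay between 7.87 and 8.10 and the wildtype samples between 6.97 and 7.33, and for Efcab6 between 7.17 and 7.37 and between 5.74 and 6.89.

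Genes of the spokes, central pair and nexin link gave 1 higher and 1 lower of 16 tested, with a median of 0.06. Drc1, a nexin link subunit, was higher by 0.37 (adjusted p = 0.0208) and Cfap100 was lower by a log2 difference of -0.40 (adjusted p = 0.0108), both in limma. Of the other dynein arm subunits and assembly factors, 0 of 13 tested were called in either direction, with 2 higher and 0 lower at an unadjusted p under 0.05 in limma and a median of 0.09. The same held for regulators of multiciliated cells, such as Mcidas and Trp73, with 0 of 9 called, 1 higher at an unadjusted p under 0.05, and a median of -0.03.

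Genes that also serve the primary cilium were measured almost completely. Of 42 intraflagellar transport and BBSome genes 41 were tested, 2 were higher and 0 were lower, with a median of 0.07. Mkks, a chaperone of BBSome assembly, was higher by 0.56 (adjusted p = 0.00857) and Ift46, a transport particle subunit, by 0.33 (adjusted p = 0.0311), both in limma. Of 18 cytoplasmic dynein and dynactin genes, which carry cargo along axonal microtubules, 0 were called in limma, 0 had an unadjusted p under 0.05, and the differences ranged from -0.17 to 0.09.

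**Figure D5:**
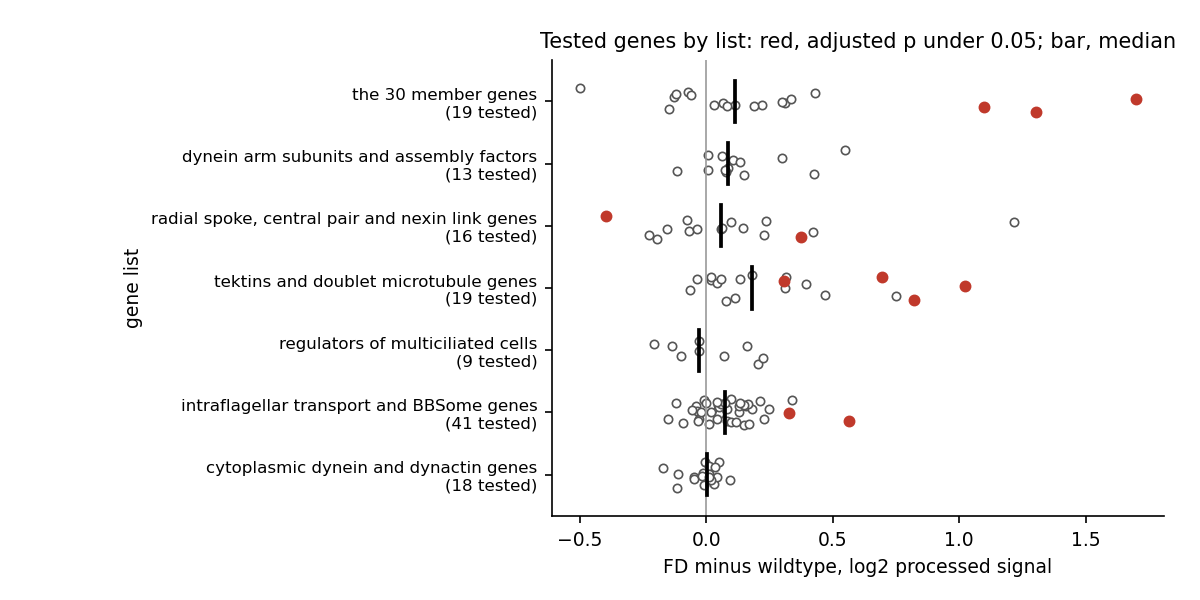
FD minus wildtype log2 signal of each tested gene in the 30 members, the 5 other ciliary lists and the cytoplasmic dynein list; red points have an adjusted p under 0.05 and black bars are medians, which run from -0.03 to 0.18. Called members lie at 1.10 to 1.70, and the cytoplasmic dynein genes lie closest to zero.

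Markers of other cells that carry motile cilia or express these genes were measured beside the members. Of 10 ependyma and choroid plexus markers 6 were tested and 1, Mia, was higher, by 0.55 (adjusted p = 0.0308 in limma), with 0 lower. Ttr, the main choroid plexus transcript, read 5.71 in FD and 5.72 in wildtype DRGs on average, and Tmem212 was above background on no array. The summed signal of the 6 tested genes ranged from 5972 to 6993 in FD and from 7245 to 8631 in wildtype samples, while their mean log2 signal was 7.89 in FD and 7.86 in wildtype DRGs, with overlapping groups. At an unadjusted p under 0.05 in limma 2 of the 6 were higher and 2 were lower, where 10.6% and 7.11% of all tested genes were. Of the 6 differences 2 were positive and 4 were negative, with a median of -0.06. Of 10 male germ cell markers only Ddx4 was tested, with a difference of -0.10, and Prm1, Tnp2, Acrv1, Odf1 and Ldhc were above background on no array.

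For spinal cord cells, 3 of 10 markers were tested and 0 were called, with 2 higher and 1 lower at an unadjusted p under 0.05 in limma, and Opalin, Hapln2, Olig2, Slc6a5 and Mnx1 were above background on no array. The summed signal of the 3 tested markers ranged from 2323 to 2591 in FD and from 2183 to 2202 in wildtype samples, while their mean log2 signal was 8.36 in FD and 8.39 in wildtype DRGs, and its part in the result was not tested. All 7 tested markers of meninges and fibroblasts had negative differences, with 0 called and 4 lower at an unadjusted p under 0.05 in limma, a median of -0.29, and a summed signal of 86394 to 101304 in FD and 104347 to 124320 in wildtype samples. Of the 12 sensory neuron markers 1 was called, Sncg, with a difference of -0.69 (adjusted p = 0.00103 in limma). At an unadjusted p under 0.05, 2 of the 12 were higher and 3 lower, and their summed signal ranged from 772589 to 805907 in FD and from 816202 to 868020 in wildtype samples. Of 10 markers of satellite glia and Schwann cells 0 were called, although 2 had a negative difference with an unadjusted p under 0.05, and of 6 of macrophages and leukocytes 0 were called, with 1 higher and 1 lower at an unadjusted p under 0.05, in limma. Over all tested genes 10.6% were higher and 7.11% were lower at that unadjusted threshold. The part of these marker shifts in the members' values was not tested.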

How the data were processed

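Total RNA was labeled with Cy3 and hybridized to Agilent mouse arrays in 1 color. The spot values deposited for each array are intensity values that Feature Extraction 10.7.3.1 had adjusted for background and detrended. The authors also deposited log2 values after their own quantile normalization in GeneSpring, which served as an alternative. That table has 38097 lines, 36 of them without a probe on the arrays, and every column has a median of 8.07. An array holds 59305 spots that are not controls, of which 93 to 221 outlier spots were left out and 0 were saturated. The log2 processed signal was averaged per probe and quantile normalized with limma 3.58.1 in R 4.3.3. Tests covered the 29432 probes, of 21063 genes, well above background on all 8 arrays. FD and wildtype samples were compared with limma (linear model, empirical Bayes, two-sided), adjusted by Benjamini and Hochberg over all tested probes, and called at an adjusted p under 0.05. The steps were also run on simulated data with independent normal noise at the spread of these arrays. Colony, slide row and correlation between genes were not simulated, so that run does not check the calls made here.

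Named genes are the 30 members, the called genes of the other lists (at most 4 a list), the called genes within 1 Mb of a called member, and Gla; markers below background and the list genes under other observations were named after their values were seen. The members, the lists and, after the promoter windows were read, part of the motif letters were chosen with earlier results of these data known. The number of arrays, 4 a group, limits the precision. Alternatives were other scaling, background correction and filters, the authors' values, the methods' t-test (Welch), blocks for replicate number and slide row, array weights, each sample left out, and the mean over a gene's probes. The t-test was called here at an adjusted p under 0.05, whereas the paper filtered on unadjusted p and fold change, so its count of genes is not comparable. Probe positions are on mm9.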

Additional observations from a re-analysis of the deposited data

Results flagged for a closer look

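The 2 groups of each of the 56 member probes were examined where at least 1 of their arrays was above background, 65 groups in all, for a value whose gap to the nearest of the others, divided by the range of its group, exceeded Dixon's 95% critical value. Chance alone gives about 1 such value in 20 groups, and 3 were found. The Dnah7b probe A_55_P2016312 read 6.36 in wildtype sample 3, where the next value of that group was 2.99, and it was above background on that array only. The Dnah10 probe A_55_P2101031 read 6.01 in FD sample 4, where the next value was 2.41, and it too was above background on that array only. The tested Dnah8 probe A_55_P2025675 read 8.92 in FD sample 1, below the next FD value of 9.10 and above all wildtype values.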

How the results depend on the processing

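Under all 18 alternatives Dnah8, Meig1 and Wdr65 stayed called and higher in FD DRGs, with log2 differences of 1.41 to 1.75 (highest adjusted p = 0.00362), 1.13 to 1.39 (0.0141) and 1.05 to 1.15 (0.0235). Over the 19 tested members, 321 of 342 values kept their direction and side of the threshold. In 7 a member became called, all of them Ccdc113, Dnah7b or Rsph1. Member genes called numbered 5 with the slide row as a block and 6 with array weights, and 3 to 4 with 1 sample left out. The median difference of the members was 0.19 with probes above background on 4 of 8 arrays, 0.016 with the row block and 0.17 with array weights, and 0.055 to 0.23 with 1 sample left out, with its lowest value without wildtype sample 2 and its highest without wildtype sample 1. Probes called over the array were 904, of which 578 were higher. They were 2102 with array weights, 556 without a background filter, 266 with the methods' t-test and 414 to 1038 with 1 sample left out. That count was 450, 414, 482 and 476 without FD sample 1, 2, 3 or 4, and 541 and 533 without wildtype sample 3 or 4. Of the other ciliary genes 4 were called without a background filter, 1 with the t-test (Cfap100, lower), and 3 to 10 with 1 sample left out. It was 5, 3, 4 and 5 without FD sample 1, 2, 3 or 4, and 3 and 5 without wildtype sample 3 or 4. The t-test called 3 members higher, 0 lower, and 0 genes of the cytoplasmic dynein and marker lists.

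The sign turned in 14 values, none of them called. With the row block these were Ccdc39 (-0.0028), Dnaic2 (-0.080) and Foxj1 (-0.076), and with the mean over probes Ccdc40 (-0.075) and Dnah7a (0.14). Dnah2 turned with normexp (-0.015), array weights (-0.072), without FD sample 3 (-0.0047) and without wildtype sample 2 (-0.065), with a range of -0.065 to 0.098 with 1 sample left out, and Spef2 turned with array weights (0.029). Dnah17 turned without FD sample 4 (0.01), wildtype sample 1 (0.048) or wildtype sample 4 (0.03), with a range of -0.20 to 0.048, and Foxj1 without wildtype sample 2 (-0.012), with a range of -0.012 to 0.23. The cause was not tested.

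The replicate numbers did not pair the samples, since the deviations of same-numbered samples correlated at 0.06, -0.25, -0.05 and -0.02. With a replicate block 284 probes were called over the array, 1 other ciliary gene and 3 members, the same 3 as without it. With 4 arrays a group, a member that was not called may still differ within its confidence interval, and transcripts near background give only bounds.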

Other observations

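Other ciliary genes had sizable differences in FD DRGs that did not pass the test, and they were picked after their values were seen. Ccdc65, a nexin link protein, read 9.21, 9.22, 8.12 and 7.32 in FD and 7.37, 6.92, 7.44 and 7.27 in wildtype DRGs, a log2 difference of 1.22 (SE 0.40, adjusted p = 0.154 in limma). FD samples 1 to 3 lay above the wildtype range, and FD sample 4 lay within it. Fam183b, a protein of motile cilia, read 9.18, 9.18, 9.46 and 9.58 in FD and 8.19, 9.14, 8.42 and 8.66 in wildtype DRGs (0.75, SE 0.19, adjusted p = 0.0827 in limma). Dnaaf3, a dynein arm assembly factor, read 9.74, 9.75, 9.07 and 9.72 in FD and 8.91, 8.94, 9.09 and 9.15 in wildtype DRGs (0.55, SE 0.15, adjusted p = 0.106 in limma), with FD sample 3 inside the wildtype range.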
